A study of Mus musculus with 6 samples.

Results

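The genes described here encode the actin core of the microvillus and the unconventional myosins. They were chosen by a rule on names: every gene of the deposited table whose symbol begins with Myo and a digit or with Cdhr, together with Espn, Fscn1, Pls1, Pls3, Lcp1, Eps8, Eps8l2, Ezr, Rdx, Msn, Ush1c, Actb, Actg1, Baiap2l1, Cobl and Slc9a3r1. This choice, and that of the gene lists and tests, was made with earlier results of these data known. The rule found 44 of the 23420 genes in the table, 24 of them unconventional myosins. They were measured by RNA sequencing in 6 libraries of sorted ileal tuft cells, which form 1 group of replicates labelled as mice 1 to 6. The mice were Gfi1b-eGFP/+, bred on C57BL/6J, the mice of the study were 6 to 12 weeks of age, and the labels name no treatment. Green fluorescent protein is expressed from 1 allele of Gfi1b, a transcription factor gene active in tuft cells and also in some blood cells. The gate took GFP+EpCam+CD45- cells that excluded propidium iodide. The design holds no second condition, so the comparisons are between genes within each library and between libraries.

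Tuft cells take their name from a tuft of long, stiff microvilli at the apical pole, whose actin bundles reach deep into the cytoplasm. A microvillus is built on parallel actin filaments that bundling proteins such as villin, espin and plastin hold together. Class I myosins and ezrin tie the bundle to the plasma membrane, proteins of the EPS8 group sit at the filament ends, and the protocadherins CDHR2 and CDHR5 join neighbouring microvilli at their tips through an anchor of harmonin, ANKS4B and myosin VIIB. Most of these parts are also known from the brush border of enterocytes. Some of them, or related proteins, are known from the stereocilia of inner ear hair cells.

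Levels are given as TPM, the number of transcripts of a gene per 1000000 transcripts, which is corrected for transcript length. Comparing genes by TPM takes the libraries as SMART-Seq2, the preparation of the paper's methods. The labels also name a 3' polyA and a droplet preparation, which this correction may not suit. Each library sums to 1000000 TPM, so the depth is unknown, and how low a level could have been seen is unknown too. A library listed 13044 to 13308 genes above 0. The ribosomal RNA precursor Rn45s took 23.1% to 32.6% of the TPM, and Gm20594 took 1.56% to 2.13% in replicates 1 to 3 against 5.18% to 5.64% in replicates 4 to 6, so the share left for all other genes differed between libraries. The 12 genes of a tuft cell list that were in the table (of 14) were above 0 in every library and summed to 4004 to 6612 TPM. Genes of other epithelial cells were also present, with sums of 7905 to 16663 TPM for 10 enterocyte genes, 4089 to 26976 TPM for 7 Paneth cell genes and 1053 to 5118 TPM for 7 goblet cell genes. Of the enterocyte sum, Fabp1 alone gave 4226 to 12794 TPM, while Alpi gave 14.6 to 51.0 TPM. The sum of 7 enteroendocrine genes, 374.1 to 525.3 TPM, was mostly Sct at 330.8 to 473.6 TPM, and 3 of the 7 were above 0 in every library. The sums were lower for 10 leukocyte genes (34.2 to 259.0 TPM) and 7 stromal and endothelial genes (0 to 73.1 TPM), and of the latter Col1a2 and Cdh5 were listed at 0 in every library. Gzma gave 10.4 to 157.7 TPM of the leukocyte sum, and Dcn gave 59.4 TPM of the stromal and endothelial sum in replicate 5. In bulk RNA a smaller number of cells of a type cannot be told apart from less RNA per cell, and the share of each transcript described here that came from tuft cells was not measured.

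Of the 44 genes, 32 were listed above 0 in every library (72.7%), against 47.2% of all genes in the table. Mean levels of 1 TPM or more were found for 34 of the 44 (77.3%), against 51.4% of all genes, and of 10 TPM or more for 24 (54.5%), against 29.8%. At 50 TPM or more there were 16 (36.4%), against 8.89% of all genes, and at 100 TPM or more 15 (34.1%), against 4.5%. Actb, Actg1 and Cdhr5 had means of at least 1000 TPM, a level that 0.397% of all genes reached. At the other end, 9 genes were listed at 0 in every library (20.5%), against 32.9% of all genes. These were the bundler gene Fscn1, the cadherin genes Cdhr1 and Cdhr3, and the myosin genes Myo15, Myo16, Myo18b, Myo1g, Myo3b and Myo5a. Together the 44 genes took 1.02% to 1.60% of the TPM of a library, and 0.429% to 0.705% without the actins.

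**Figure D1:**
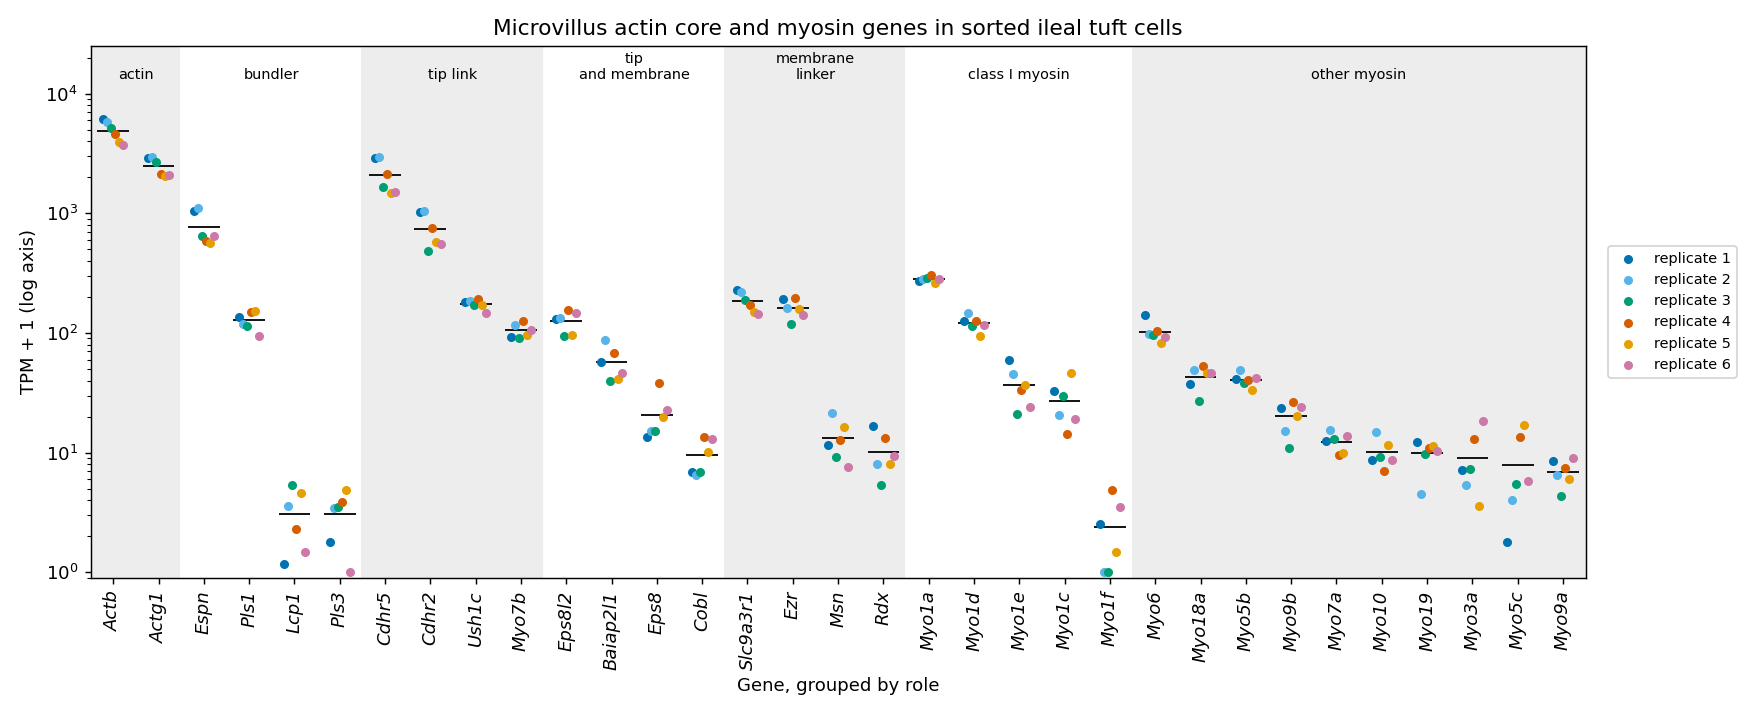
TPM + 1 on a log axis for 33 of the 34 genes at or above 1 TPM by their mean, grouped by role, with 1 coloured point per library (replicates 1 to 6) and a black line at the mean. Actb, Actg1 and Cdhr5 lie above 1000 TPM in every library, while Lcp1 and Pls3 lie below 5 TPM in every library.

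The promoters of Cdhr5 and Cdhr2 are shown because Cdhr5 was the most abundant member after the actins and the ratio of Cdhr5 to its partner Cdhr2 varied little between libraries. The 250 bases upstream of the transcript start that the RefSeq table gives (GRCm38.p6) are printed 5′ to 3′ on the strand of the gene, at chr7:141276787-141277036 on the minus strand for Cdhr5 and at chr13:54701213-54701462 on the plus strand for Cdhr2. Capitals mark matches to TTTATG, a core motif of CDX homeobox factors, or to GTTAAT, part of the motif of HNF1 factors, on either strand.
Cdhr5: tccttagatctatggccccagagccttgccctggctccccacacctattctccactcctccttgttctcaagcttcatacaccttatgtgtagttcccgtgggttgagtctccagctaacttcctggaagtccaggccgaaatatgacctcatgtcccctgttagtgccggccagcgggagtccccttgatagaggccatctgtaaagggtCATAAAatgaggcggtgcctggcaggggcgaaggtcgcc
Cdhr2: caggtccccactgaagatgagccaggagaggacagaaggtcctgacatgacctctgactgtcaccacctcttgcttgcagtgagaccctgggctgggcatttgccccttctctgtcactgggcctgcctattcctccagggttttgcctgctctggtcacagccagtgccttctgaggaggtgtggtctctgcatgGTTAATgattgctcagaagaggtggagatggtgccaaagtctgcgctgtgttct
The match in Cdhr5 begins 39 bases upstream of the start and reads TTTATG on the opposite strand, and the match in Cdhr2 begins 54 bases upstream. Of the 32851 promoter windows of this length in the table, 10.8% hold TTTATG and 6.43% hold GTTAAT, and of the 50 windows of the 37 member genes that the table covers 8 hold the former and 3 the latter. The octamer ATGCAAAT, the motif of the POU family to which the tuft cell factor POU2F3 belongs, is held by 1.6% of all windows and by 0 of these 50. Both strands were searched, the motifs were chosen after the sequences had been read, no marked match overlaps another, and a match is a description of letters only.

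The tip link genes held the most abundant member after the actins. Cdhr5 (ENSMUSG00000025497.15), the gene of the mucin-like protocadherin, lies on chromosome 7 of GRCm38 from 141269083 to 141276786. Its levels were 2899, 2931, 1649.7, 2109, 1462 and 1493 TPM in replicates 1 to 6 (mean 2091 ± 679 TPM, SD, n = 6), and it ranked at 30 of 23420 genes by its mean. It was highest in replicates 1 and 2 and lowest in replicates 5 and 6.

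Cdhr2 (ENSMUSG00000034918.8; chromosome 13, 54701461 to 54736662, plus strand) encodes the partner protocadherin across the link. Its levels in replicates 1 to 6 were 1028, 1036, 486.6, 749.6, 579.2 and 554.9 TPM (mean 739.1 ± 243 TPM, SD, n = 6). As for Cdhr5, replicates 1 and 2 were highest and replicate 4 came next. Cdhr5 exceeded Cdhr2 in 6 of 6 libraries, and the TPM ratio stayed between 2.52 and 3.39 (median 2.82). The difference of Cdhr2 from Cdhr5 was -1.50 ± 0.142 on the log2(TPM + 1) scale (SD, n = 6), against an SD between libraries of 0.46 for Cdhr5 and 0.47 for Cdhr2 on that scale. Cdhr5 held 71.6% to 77.2% of the TPM of the Cdhr genes, and Cdhr2 the rest.

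Of the intracellular anchor of the link, Ush1c, the gene of harmonin, a scaffold with PDZ domains, was at 179.7, 185.1, 169.3, 191.2, 170.7 and 146.6 TPM in replicates 1 to 6. Myo7b, the gene of the motor of this complex, was at 92.0, 115.4, 89.4, 125.4, 96.1 and 105.7 TPM. Both varied less between libraries than the cadherin genes, with a coefficient of variation (CV, the SD as a percentage of the mean) of 9.05% for Ush1c and 13.7% for Myo7b, against 32.5% for Cdhr5 and 32.9% for Cdhr2. The remaining parts of the complex were taken from a list of further genes of the actin cytoskeleton. Calml4, a light chain of myosin VIIB, had 784.0 ± 80.4 TPM and Anks4b, the gene of the scaffold ANKS4B, 49.1 ± 10.2 TPM (SD, n = 6 each). The TPM of Cdhr5 was 8.57 to 16.1 times that of Ush1c in the same library, and that of Calml4 was 6.995 to 9.28 times that of Myo7b.

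Myo7a, the class VII myosin known from hair cells, was far less abundant than Myo7b, at 11.5, 14.4, 11.9, 8.55, 8.93 and 12.8 TPM in replicates 1 to 6. Every value of Myo7a lay below every value of Myo7b, and the difference of Myo7b from Myo7a was 3.10 ± 0.350 on the log2(TPM + 1) scale (SD, n = 6).

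Among the bundlers, Espn was the most abundant and Fscn1 was listed at 0. Espn (ENSMUSG00000028943.18; chromosome 4, 152120331 to 152152371, minus strand) encodes espin, which crosslinks parallel filaments. It was at 1039, 1108, 647.0, 588.7, 565.0 and 642.3 TPM in replicates 1 to 6 (mean 765.1 ± 242 TPM, SD, n = 6). Replicates 1 and 2 stood above the other 4 libraries, which lay close together. Fscn1, the gene of fascin, a bundler of filopodia, lies 53.6 kb from Actb on chromosome 5 and was listed at 0 in all 6 libraries, so no fold is given for this pair. Its difference on the log2(TPM + 1) scale, 9.53 ± 0.428 (SD, n = 6), is the level of Espn itself and depends on the pseudocount.

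Pls1 (ENSMUSG00000049493.13; chromosome 9, 95752642 to 95845311, minus strand) encodes plastin 1, the plastin of intestinal microvilli. Its levels in replicates 1 to 6 were 134.6, 117.0, 114.2, 148.9, 150.9 and 93.0 TPM, highest in replicates 4 and 5. Lcp1, the plastin gene of leukocytes, was at 0.17, 2.59, 4.33, 1.29, 3.64 and 0.48 TPM. Pls3, the plastin gene of many solid tissues, was at 0.78, 2.42, 2.54, 2.86, 3.84 and 0 TPM. Neither overlapped with Pls1, which held 94.3% to 99.5% of the TPM of the 3 plastins. On the log2(TPM + 1) scale Lcp1 differed from Pls1 by -5.56 ± 0.884, and Pls1 from Pls3 by 5.53 ± 0.690 (SD, n = 6 each).

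Espn exceeded Pls1 in 6 of 6 libraries, by 2.55 ± 0.534 on the log2(TPM + 1) scale (SD, n = 6), which is 3.75 to 9.47 times in TPM. Espn held 78.1% to 90.1% of the TPM of the 5 bundler genes, and its share was lowest in replicates 4 and 5, where the Paneth cell genes were highest, at 26976 and 16356 TPM. The part of these cells in the shares was not tested. Beside the other bundlers of microvilli, which belong to the villin family, Espn was 0.941 to 1.75 times Vil1 (mean 572.2 ± 71.3 TPM) and 1.13 to 1.48 times Avil (mean 584.2 ± 164 TPM, SD, n = 6 each). Espn lay below Vil1 in replicate 4 and above it in the other 5 libraries.

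**Figure D2:**
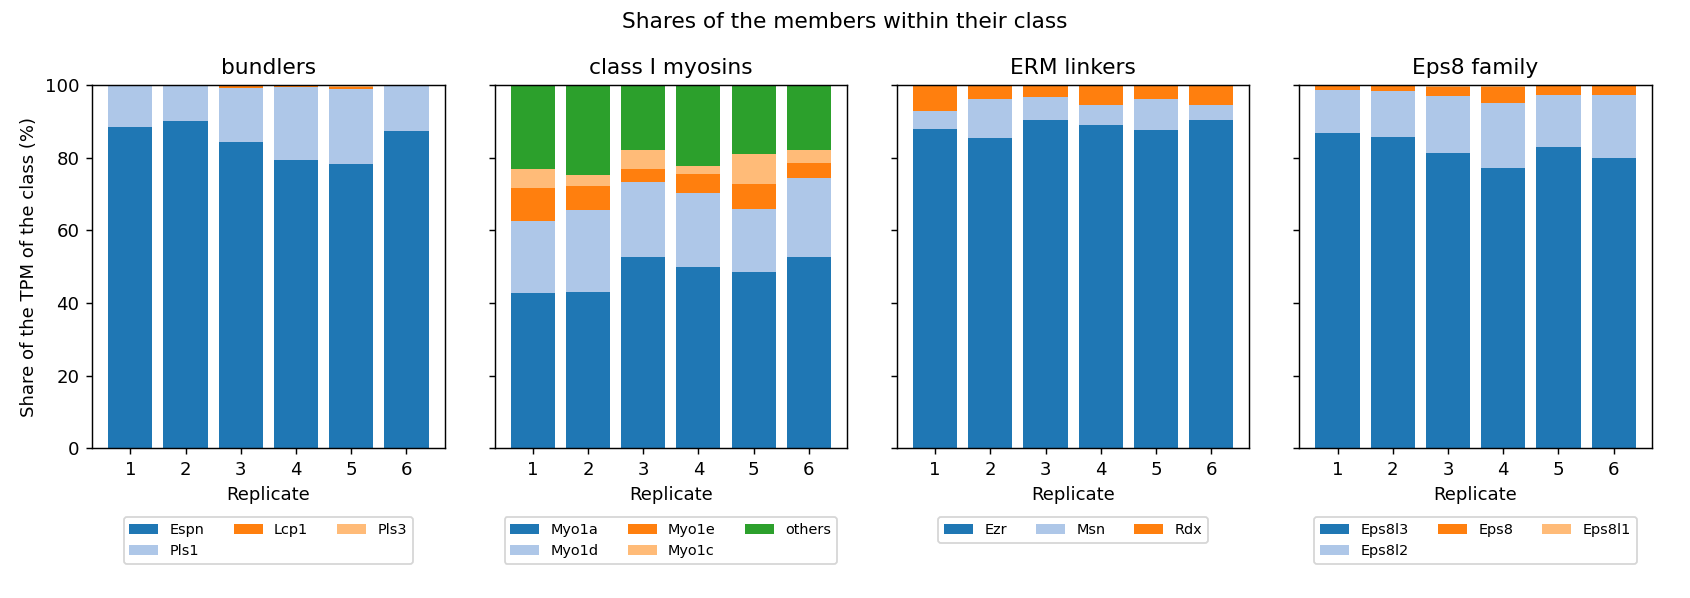
Share of each gene in the TPM of its class (%, bars stacked to 100) in replicates 1 to 6, for the bundlers, the class I myosins, the ERM linkers and the Eps8 family, which includes the genes Eps8l3 and Eps8l1. The class I genes drawn as others are summed. Espn, Myo1a, Ezr and Eps8l3 hold the largest share of their class in every library. The bundler class leaves out Vil1 and Avil, and Espn lay below Vil1 in replicate 4.

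Class I myosins are single-headed motors that tie the actin bundle to the membrane along the microvillus. Their summed TPM was similar in all libraries, between 535.7 and 653.6 TPM, and Myo1a held 42.6% to 52.6% of it. Myo1a (ENSMUSG00000025401.9; chromosome 10, 127705170 to 127720940, plus strand), the gene of brush border myosin I, was at 269.4, 281.7, 288.4, 303.6, 259.6 and 282.9 TPM in replicates 1 to 6. It had the lowest CV of the 24 members at or above 10 TPM, 5.42%, and 4 of the 6986 genes at that level, Myo1a among them, had a CV that low. The values of its libraries lay within 1.17-fold of each other. After rescaling each library without Rn45s and Gm20594 its CV was 8.70%, above the 8.63% of Ush1c.

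Myo1d, which encodes another motor of the brush border, was at 126.0, 146.2, 112.9, 123.9, 93.7 and 116.6 TPM in replicates 1 to 6, below Myo1a in 6 of 6 libraries. Myo1d differed from Myo1a by -1.23 ± 0.186 on the log2(TPM + 1) scale (SD, n = 6), which puts Myo1a at 1.93 to 2.77 times Myo1d in TPM.

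Lower in the class came Myo1e at 20.1 to 57.9 TPM and Myo1c at 13.2 to 44.8 TPM, motors of endocytosis and of membrane traffic in many cell types. Myo1f, a myosin gene of leukocytes, was above 0 in 4 of 6 libraries, at no more than 3.90 TPM, and Myo1g, another of leukocytes, was listed at 0. Myo1h was at no more than 0.70 TPM. Of its exon bases 25.8% overlap those of Kctd10 on the opposite strand, which had 43.2 TPM, so reads in that stretch cannot be told apart from those of Kctd10 without strand.

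Among the myosins of other classes, Myo6, the gene of the motor that moves toward the pointed end of the filament, was the most abundant after Myo7b. It was at 141.4, 97.1, 94.7, 103.3, 81.0 and 90.9 TPM in replicates 1 to 6, with replicate 1 apart from the rest. Myo18a followed with 26.0 to 51.5 TPM, then Myo5b, which serves apical recycling, with 32.1 to 47.9 TPM, and Myo9b with 9.88 to 25.6 TPM. Myo5b held 66.8% to 98.1% of the TPM of the class V myosins, Myo5c of glandular epithelia the rest, and Myo5a, the melanosome motor, was listed at 0. The share of Myo5c was highest in replicates 4 and 5, where it was at 12.6 and 15.9 TPM, against 0.79 to 4.75 TPM in the other 4 libraries.

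The remaining myosins were lower. Myo10, the filopodial motor, was at 6.09 to 14.0 TPM, Myo19, the mitochondrial motor, at 3.54 to 11.2 TPM and Myo9a at 3.38 to 7.95 TPM. Of the class III and XV myosins, which serve the tips of stereocilia, Myo3a was above 0 in every library, at 6.20, 4.41, 6.25, 11.9, 2.56 and 17.3 TPM, while Myo3b and Myo15 were listed at 0. Myo16 and Myo18b were listed at 0 as well. Over all 24 unconventional myosin genes the sum was 848.3 to 1021 TPM, of which Myo1a, Myo1d, Myo7b and Myo6 had mean shares of 29.95%, 12.7%, 11.0% and 10.7%.

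At the filament ends and the membrane around them, Eps8l2 was at 130.2, 132.2, 92.8, 153.2, 95.8 and 147.0 TPM in replicates 1 to 6. Eps8, the gene of the capping and bundling protein EPS8 of the brush border, was lower in every library, at 12.5, 14.2, 14.2, 37.1, 18.8 and 21.6 TPM. Eps8 differed from Eps8l2 by -2.67 ± 0.483 on the log2(TPM + 1) scale (SD, n = 6), which puts Eps8l2 at 4.13 to 10.4 times Eps8 in TPM. Their relative Eps8l3, from the list of further genes, was higher than both, at 702.1 ± 187 TPM (SD, n = 6), and held 77.1% to 86.8% of the TPM of the 4 genes of the family. Of the exon bases of Eps8l2, 32.2% overlap B230206H07Rik on the opposite strand, which had 1.55 TPM.

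Baiap2l1, the gene of an EPS8 partner that bends membranes outward, was at 56.3, 86.3, 38.7, 67.5, 40.0 and 45.6 TPM in replicates 1 to 6, highest in replicate 2 and lowest in replicate 3. Cobl, the gene of the actin nucleator cordon-bleu, was low, at 5.56 to 12.5 TPM.

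The linkers of the ERM family join actin to membrane proteins, and Ezr was their main gene here. Ezr (ENSMUSG00000052397.8; chromosome 17, 6738041 to 6782784, minus strand) was at 190.8, 160.3, 117.6, 194.1, 157.1 and 140.0 TPM in replicates 1 to 6, highest in replicates 1 and 4. Msn, the gene of moesin, was at 10.6, 20.5, 8.18, 11.8, 15.3 and 6.56 TPM. Rdx, the gene of radixin, was at 15.8, 7.04, 4.39, 12.3, 6.98 and 8.39 TPM. Neither overlapped with Ezr, which held 85.3% to 90.4% of the TPM of the 3 genes. The difference of Ezr was 4.06 ± 0.361 from Rdx and 3.68 ± 0.499 from Msn on the log2(TPM + 1) scale (SD, n = 6 each). Slc9a3r1, the gene of the scaffold NHERF1 that binds ezrin, was at 229.6, 218.3, 187.8, 171.2, 148.6 and 142.2 TPM.

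The actins themselves were the most abundant members. Actb (ENSMUSG00000029580.14; chromosome 5, 142903115 to 142906754, minus strand), the gene of beta-actin, was at 6117, 5756, 5109, 4615, 3933 and 3748 TPM in replicates 1 to 6, and ranked at 11 of all genes by its mean. Actg1, the gene of gamma-actin, was at 2908, 2957, 2701, 2120.3, 2039 and 2074 TPM. Actb exceeded Actg1 in 6 of 6 libraries, by 0.98 ± 0.0999 on the log2(TPM + 1) scale (SD, n = 6), and held 64.4% to 68.5% of their sum. How far the transcripts of these genes share sequence was not computed, and any reads that match both were divided between them by the authors' estimate.

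The 11 gene pairs compared above (Cdhr2 with Cdhr5, Myo7b with Myo7a, Espn with Fscn1 and with Pls1, Lcp1 with Pls1, Pls1 with Pls3, Myo1d with Myo1a, Eps8 with Eps8l2, Ezr with Rdx and with Msn, Actb with Actg1) differed in the same direction in 6 of 6 libraries. For each, p was 0.03125 by a two-sided exact permutation test that flips the signs of the library differences, which cannot go lower with 6 libraries, and 0.03125 after Benjamini-Hochberg adjustment over the 12 pairs tested. This p follows from the signs alone and ranks no pair above another. For Espn with Fscn1 the direction was fixed by the values of 0 and the p adds nothing. For the other pairs the p only restates the count of 6 of 6 libraries. The pairs were chosen with earlier results known, and the share of all gene pairs that differ so was not computed. A direction shared by 6 of 6 libraries also holds on average within any set of them, so splitting the libraries gives no further check of direction. The sets that differ in Gm20594 are replicates 1 to 3 and replicates 4 to 6. Eps8 less Eps8l2 was -3.01 ± 0.346 in the former and -2.34 ± 0.351 in the latter, and Espn less Pls1 was 2.89 ± 0.373 and 2.22 ± 0.485 (SD, n = 3 each), differences between sets that were not tested.

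**Figure D3:**
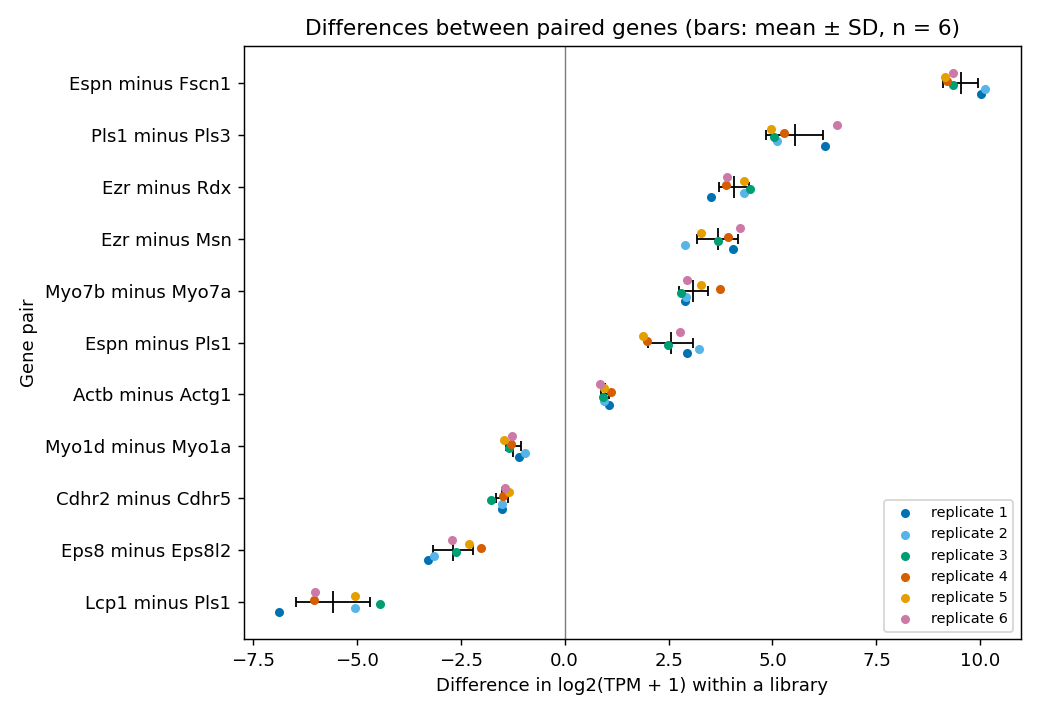
Difference in log2(TPM + 1) between the genes of 11 pairs within each library, with 1 coloured point per library and black bars for the mean ± SD (n = 6). No pair crosses 0, and the means run from -5.56 for Lcp1 minus Pls1 to 9.53 for Espn minus Fscn1, whose second gene is listed at 0.

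Between libraries, the 24 members at or above 10 TPM had a median CV of 20.5%, against 31.0% for all 6986 genes at that level. A CV of at most 20% was found for 11 of the 24 (45.8%), against 16.1% of all genes. The part of expression level in this was not tested. The steadier members were Myo1a, Ush1c, Myo5b, Myo7b and Myo1d, and the more variable ones Eps8, Myo1c, Msn and Myo1e, with CVs of 46.4%, 44.1%, 41.7% and 39.6%. Espn, Actb, Actg1 and Slc9a3r1 were higher in each of replicates 1 to 3 than in any of replicates 4 to 6 (4 of 24 members, against 16.8% of all genes), and after rescaling without Rn45s and Gm20594 Actg1 alone of the 24 was, against 7.39% of all genes. Eps8 was lower in each of replicates 1 to 3 than in any of replicates 4 to 6 (1 of 24, against 2.93% of all genes). In 3 of the 34 members at or above 1 TPM, Myo19, Myo6 and Eps8, 1 library lay apart from the others by Dixon's ratio (8.82%, against 9.04% of all genes at that level). On the log2(TPM + 1) scale Myo19 alone of these 3 was past the critical value.

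**Figure D4:**
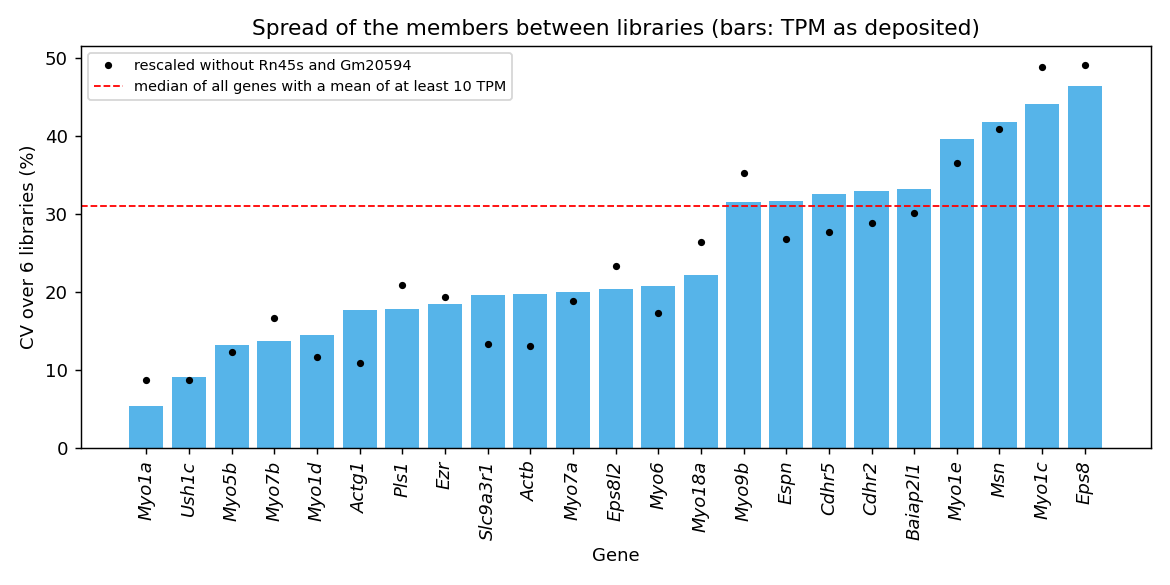
CV over 6 libraries (%) of 23 of the 24 members at or above 10 TPM. Bars show TPM as deposited, black points the values after rescaling without Rn45s and Gm20594, and the dashed line the median of all genes at that level (31.0%). The bars run from 5.42% for Myo1a to 46.4% for Eps8.

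Correlations of some members with the marker lists were computed across the libraries, and on TPM as deposited none passed the adjustment. None of the members is in these lists. The log2(TPM + 1) of 10 members was set against the median of the tuft cell and of the enterocyte list, and that of Lcp1 and Msn against the leukocyte list, giving 22 relations over 6 libraries with exact permutation p-values over 720 pairings, of which 3 had p below 0.05 for Pearson's r and 0 after adjustment. For Cdhr5 and the tuft cell list, Pearson's r was 0.962 (exact permutation p = 0.00833, adjusted p = 0.122) and Spearman's rho was 0.886 (exact permutation p = 0.0333, adjusted p = 0.55). For Cdhr2 and the same list, r was 0.948 (exact permutation p = 0.0139, adjusted p = 0.122) and rho was 0.771 (exact permutation p = 0.103, adjusted p = 0.55). With replicates 1 and 2 left out, whose list values lay farthest from the median, r was 0.870 for Cdhr5 and 0.802 for Cdhr2, and centred within the sets of libraries that differ in Gm20594 it was 0.964 and 0.938.

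With the enterocyte list, r was 0.199 for Cdhr5 (exact permutation p = 0.688, rho = 0.0286) and 0.382 for Cdhr2 (exact permutation p = 0.424, rho = 0.371), and centred within the sets it was 0.733 and 0.732. Ezr had r = 0.891 with this list (exact permutation p = 0.0167, adjusted p = 0.122) and rho = 0.8286 (exact permutation p = 0.0583, adjusted p = 0.55). Its r was 0.658 without replicates 3 and 4 and 0.935 centred within the sets. After median-of-ratios rescaling its r was 0.966 with an adjusted p of 0.0306 (exact permutation test). By the same test the adjusted p was 0.0611 without Rn45s and Gm20594 (r = 0.946) and 0.173 with the mean of the list (r = 0.892). With the tuft cell list the r of Ezr was 0.682 (exact permutation p = 0.146, rho = 0.657) and 0.894 centred within the sets, and whether its relation to one list differs from that to the other was not tested.

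Espn had r = 0.844 with the tuft cell list (exact permutation p = 0.05, adjusted p = 0.275, rho = 0.714), a relation that rested on replicates 1 and 2, since r was -0.01 without them. Its r with the enterocyte list was -0.11 (exact permutation p = 0.793, rho = -0.43). Pls1 had r = 0.694 with the enterocyte list (exact permutation p = 0.128, rho = 0.657) and 0.107 with the tuft cell list (exact permutation p = 0.844, rho = -0.0857). Myo1a, Myo7b, Ush1c, Eps8 and Lcp1 had r between -0.58 and 0.552 with these lists, all with exact permutation p above 0.05. The r of Ush1c depended on the scaling, with 0.383 for the enterocyte list as deposited, 0.826 after median-of-ratios rescaling (exact permutation p = 0.05, adjusted p = 0.275) and 0.781 without Rn45s and Gm20594, and for the tuft cell list 0.552, 0.197 and 0.262. Lcp1 and Msn, both abundant in leukocytes, had r of -0.22 and -0.21 with the leukocyte list (exact permutation p = 0.679 and 0.693). The median of this list was low, at 1.89 to 2.99 on the log2(TPM + 1) scale, so no conclusion is drawn from these r. With the mean of the list they were 0.0479 and -0.0761.

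**Figure D5:**
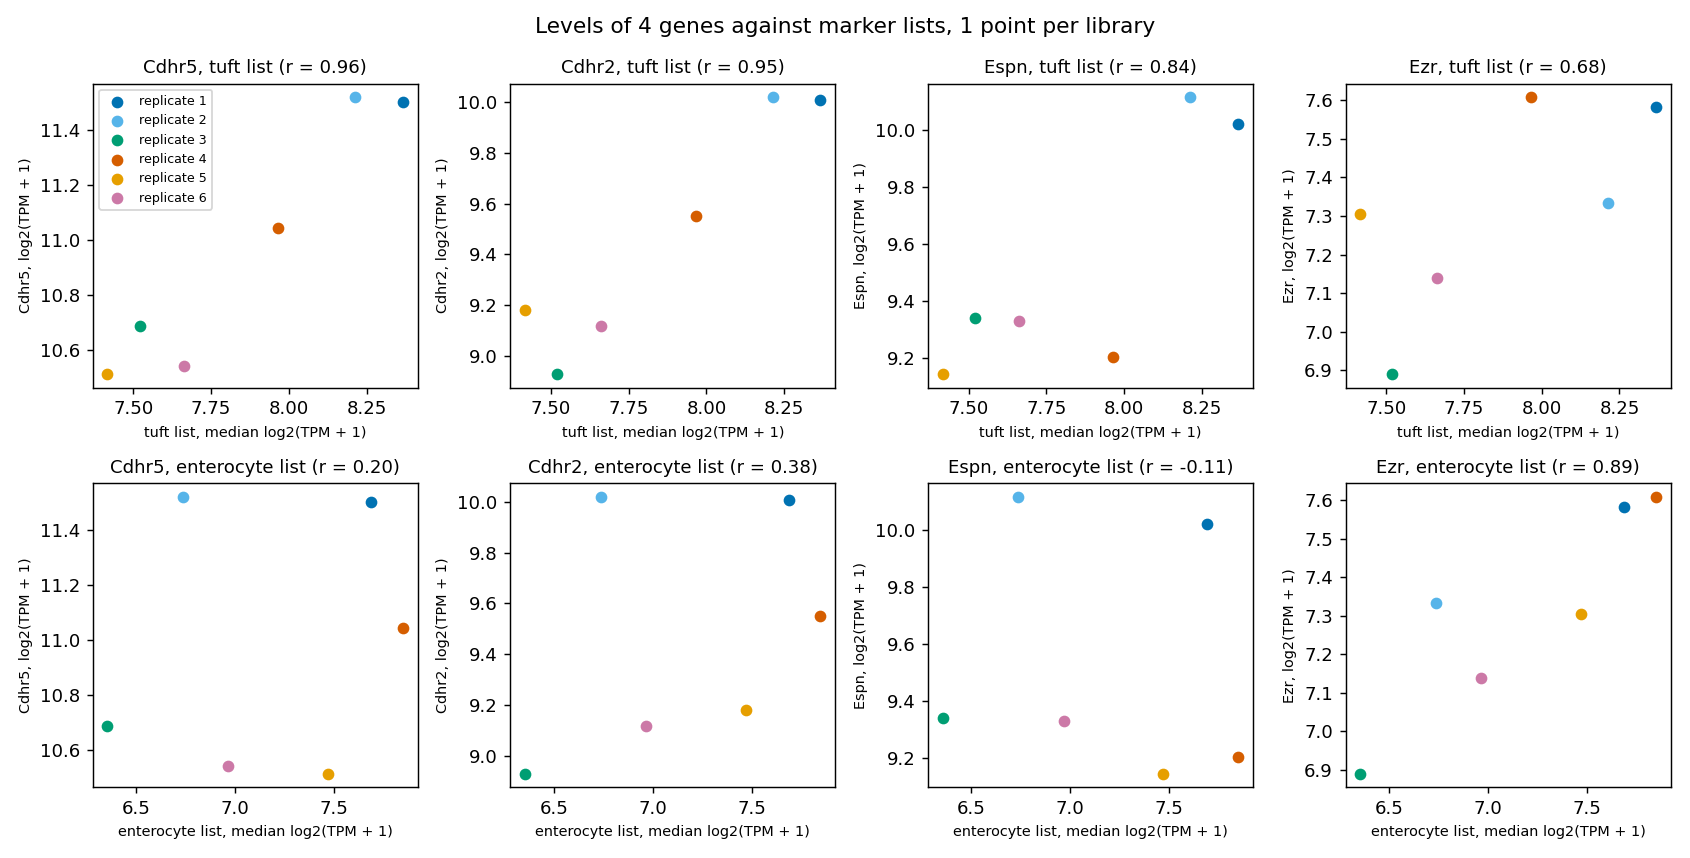
The log2(TPM + 1) of Cdhr5, Cdhr2, Espn and Ezr (vertical axes) against the median log2(TPM + 1) of the tuft cell list (upper row) and the enterocyte list (lower row), with 1 point per library and Pearson's r in each title. Replicates 1 and 2 are highest for Cdhr5, Cdhr2 and Espn, and replicates 1 and 4 for Ezr.

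Of 53 further genes of the actin cytoskeleton, such as villin, capping, ARP2/3 and light chain genes, 52 were in the table. Not all of them are parts of the microvillus bundle. Of the 52, 43 were at or above 10 TPM by their mean, against 29.8% of all genes, and 26 at or above 100 TPM, against 4.5%. Vill and Enah were listed at 0 in every library, as were 32.9% of all genes, and Espnl was at no more than 0.04 TPM. Among the most abundant were Myl6, a myosin light chain gene, at 2115 ± 489 TPM, Pfn1 of profilin at 971.8 ± 196 TPM, Calml4 at 784.0 ± 80.4 TPM and Eps8l3 at 702.1 ± 187 TPM (SD, n = 6 each).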

How the data were processed

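The authors made paired-end SMART-Seq2 libraries with 18 amplification cycles, mapped them to the mm10 transcriptome of UCSC using Bowtie (1 mismatch, a fragment limit of 2000 bases, 15 alignments at most), and deposited TPM per gene, computed by RSEM (v1.2.3). This program divides reads shared by near-identical genes by estimate. The sample labels also name a 3' polyA and a droplet preparation, and a strand setting is not given in the sources used here. Columns were matched to replicates by number, and TPM was used as deposited.

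Genes were compared within libraries on log2(TPM + 1) by the sign-flip test over 64 assignments. The Mann-Whitney test that the methods name for pairs of samples ignores which library a value came from, and was run as an alternative. Beyond the word mouse in each title nothing says how replicates were collected, and the p-values take these libraries as units. For the gene pairs the p follows from direction or rank and does not measure spread. The members, gene lists and tests were chosen with earlier results of these data known. Genes at or above 50 TPM by their mean and the genes of the 12 pairs are given by library, apart from some items that are not reported here. Exon overlaps come from GENCODE M21 on GRCm38, the assembly of mm10, and promoters from RefSeq. The routines were tested on simulated data, and run in Python 3.11.15 (scipy 1.17.1, numpy 2.4.6, matplotlib 3.10.9, pandas 2.3.3).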

Additional observations from a re-analysis of the deposited data

Results flagged for a closer look

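In 3 of 34 members at or above 1 TPM by their mean (8.82%), 1 library lay apart from the others by Dixon's ratio, the gap to the nearest library over the whole range, set against its 95% critical value for 6 libraries. Chance places about 1 in 20 groups there, and of all genes at this level 9.04% were past it. Myo19 was at 3.54 TPM in replicate 2 and at 8.75 to 11.2 TPM elsewhere (ratio 0.681). Eps8 was at 37.1 TPM in replicate 4 and at 12.5 to 21.6 TPM elsewhere (ratio 0.631). Replicate 4 also had the largest sum of Paneth cell genes and the highest median of the enterocyte list, though not the largest enterocyte sum. The part of these cells in the value was not tested. Myo6 was at 141.4 TPM in replicate 1 and at 81.0 to 103.3 TPM elsewhere (ratio 0.630). On the log2(TPM + 1) scale the ratio was 0.774 for Myo19, 0.504 for Eps8 and 0.564 for Myo6, of which Myo19 alone was past the critical value.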

How the results depend on the processing

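The 12 pair differences kept their direction, and their p its side of 0.05, under pseudocounts of 0.1 and 0.01, with values under 0.1 TPM set to 0, under both rescalings and by the exact Mann-Whitney test, which gave p = 0.00216 for each pair. Rescaling and pseudocounts cannot change which gene of a library is higher. With each library left out in turn, each pair kept its direction, with no test run on the 5 libraries left. This had to follow, since the direction was the same in every library. The Mann-Whitney p was the lowest that test can give here, as the values within each pair did not overlap. The difference of Espn from Fscn1 went from 9.53 to 16.2 with a pseudocount of 0.01, as Fscn1 is listed at 0. The 24 members with a mean of at least 10 TPM became 20 to 31 under the other thresholds and rescalings, and the 32 above 0 in every library became 30 to 33. Without Rn45s and Gm20594 the mean of 29 of the 35 members above 0 moved beyond 1 SD, as this rescaling raises every value by 1.33 to 1.61 times. The mean of Myo1f was 1.41 TPM, and 0.908 TPM without replicate 4. The mean of Myo1h was 0.243 TPM, and 0.152 TPM without replicate 3. The count of members higher in replicates 1 to 3 than in 4 to 6 went from 4 to 1 under both rescalings, as the share of all genes went from 16.8% to 7.27% and 7.39%.

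Of the correlations, 1 passed the adjusted threshold under an alternative, Ezr with the enterocyte list after median-of-ratios rescaling (r = 0.966). The sign turned in 14 settings, and the cause was not tested. For Myo1a with the enterocyte list r went from -0.11 to 0.509 (median-of-ratios), 0.413 (without Rn45s and Gm20594) and 0.138 (mean of the list), and its r of 0.119 with the tuft cell list became -0.24 and -0.19 under the rescalings. The mean of the list took Lcp1 with the leukocyte list to 0.0479. Without the 2 libraries farthest from the median of the list, r became -0.99 for Myo7b, -0.0272 for Cdhr5 and -0.28 for Eps8 with the enterocyte list, -0.00836 for Espn and 0.895 for Eps8 with the tuft cell list, and 0.780 for Msn with the leukocyte list. Centring within sets of libraries, chosen after the data were seen, gave 0.441 for Espn with the enterocyte list and 0.382 for Eps8 with the tuft cell list. No paired analysis was possible because the libraries form 1 group, so that replicate numbers pair no groups, while the gene comparisons themselves are paired within libraries.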
